A study of Mus musculus with 12 samples.

Results

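The 35 genes described here encode the core machinery of autophagy, the process by which a cell encloses part of its own cytoplasm in a double membrane and delivers it to the lysosome. They were chosen by gene symbol, from the kinase complex that starts the process to the receptors that bring cargo to it. No value enters the rule, but the set was proposed with earlier results of these data known. All 35 were found among the 43430 genes of the deposited table, and all 35 passed a filter of at least 1 RPKM in at least 4 of the 12 libraries. RPKM divides a gene's reads by its length and by the library total.

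The cells were alveolar macrophages, which live in the air sacs and clear surfactant and particles, taken from naive mouse lungs or in a murine lung transplant model at 2 h or 24 h after reperfusion, when blood flows through the graft again. There were 4 libraries of each group, from polyadenylated RNA. Every group carried the genotype Cx3cr1gfp/+B6, in which a fluorescent reporter occupies 1 copy of the Cx3cr1 gene, and all mice were males of 14 weeks. Titles at 2 h and 24 h include Allo, a word left unexplained. The labels also do not say whether the genotype is that of donor or recipient, how the cells were isolated, or whether each library is a different mouse. The p-values therefore reflect only how far the libraries of a group lie apart, part of which may be technical. That spread was estimated over all groups together, so each comparison also carries the spread of the group it leaves out.

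Autophagy begins when the ULK1 kinase complex is switched on and a lipid kinase complex marks a membrane with phosphatidylinositol 3-phosphate (PI3P). The growing membrane takes in lipid, and 2 ubiquitin-like conjugation systems attach ATG8 family proteins (LC3 and GABARAP) to it, where they bind receptors that carry ubiquitin-tagged cargo. In macrophages parts of the same machinery also act on phagosomes, and they are known to restrain inflammasome signalling.

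Library totals read from the steps of the RPKM values were 6112586 to 11997945 reads, and the members had between 46 reads (Atg10) and 7489 reads (Sqstm1) in a library. Markers of alveolar macrophages had a summed level over 14 genes of 12000 to 12400 RPKM in naive libraries, 8400 to 9640 at 2 h and 9750 to 11700 at 24 h. Most of this sum was Chil3, with a mean of 7780, 4970 and 7800 RPKM, so its course is largely that of Chil3. The lowest of the markers, Fabp4, had 10 to 23.5 RPKM. Of the 14, 5 were lower and 2 higher at 2 h than in naive libraries, and 10 were lower and 2 higher at 24 h. The sum over 11 lymphocyte markers went from 11.5 to 18.9 RPKM in naive libraries to 2.75 to 9.12 at 2 h and 2.11 to 3.32 at 24 h. Over 10 neutrophil markers the sum was 15.7 to 21.9, 15.5 to 23.9 and 32.2 to 38.8 RPKM, with Ly6g at no more than 0.108 RPKM in any library and S100a8 at a mean of 10.2, 11 and 29.8. Csf3r, of the same list, went the other way, with a mean of 6.51, 5.45 and 2.01 RPKM. Of the 3 neutrophil markers tested, 1 was higher and 1 lower at 24 h than in naive libraries. Over 9 epithelial markers it was 67 to 72.2, 61.1 to 80.8 and 33.8 to 41.5 RPKM, with Epcam as its largest term. Interstitial macrophage markers (8 genes) summed to 6.51 to 10.9, 2.89 to 5.4 and 3.58 to 8.98 RPKM, with 3 of 4 tested lower at 2 h, among them C1qa (a mean of 3.49 RPKM in naive libraries and 0.483 at 2 h). Monocyte markers (7 genes) summed to 25 to 27, 11.9 to 18.5 and 21.3 to 30.4 RPKM, with both tested lower at 2 h. Most of this sum was Fn1, with a mean of 23.0, 15.1 and 24.4 RPKM, and 5 of the 7 were below 1 RPKM in every library. The part of these other cells in the results was not tested, and fewer cells of a type and less RNA per cell cannot be told apart in bulk samples. Another 38 genes had a 2 h mean of at least 2 RPKM and a naive mean of at most 5% of it, without overlap of the 2 groups. Among them H2-Ea-ps stood at 19.3 to 27.1 RPKM at 2 h against 0 to 0.184 in naive libraries. None of the 38 was a member. Time after reperfusion cannot be told apart from whatever else differs between these groups.

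At 2 h the machinery divided: the cargo receptor genes Sqstm1 and Tax1bp1 and the ATG8 gene Gabarapl1 rose, while most genes of the ULK1 complex, the receptor gene Nbr1 and the conjugation genes Atg3, Atg5 and Atg12 fell. By 24 h Sqstm1 and Gabarapl1 were below their naive level, and Optn, Atg4a, Atg3 and Atg5 were above it. At that time 4 of the 5 ATG8 genes were lower than in naive libraries, as were 20.6% of all genes. In counts, 15 of the 35 genes differed at 2 h from naive (3 higher and 12 lower) at an adjusted p under 0.05, or 42.9%. Among all 11419 genes tested 36.7% differed in that comparison, 14.7% higher and 22% lower, so the members' share was close to the background. The median log2 change of the members was -0.16, and that of all genes was -0.04.

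At 24 h 17 members differed from naive, 5 higher and 12 lower, or 48.6% against a background of 45.9%, of which 25.3% were higher and 20.6% lower. The median change was -0.13 on the log2 scale for members and 0.00 for all genes. Between 24 h and 2 h 17 members differed, 10 higher and 7 lower, again 48.6%, with a background of 52.5%, of which 30.9% were higher and 21.5% lower. The medians were 0.02 and 0.05. With median-ratio scaling in place of the authors' totals the split was 4 higher and 8 lower at 2 h, and 5 higher and 9 lower at 24 h against 2 h. In all, 24 members (68.6%) differed in at least 1 comparison, as did 70.4% of all genes. The 3 comparisons share libraries, so they are not independent of each other.

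**Figure D1:**
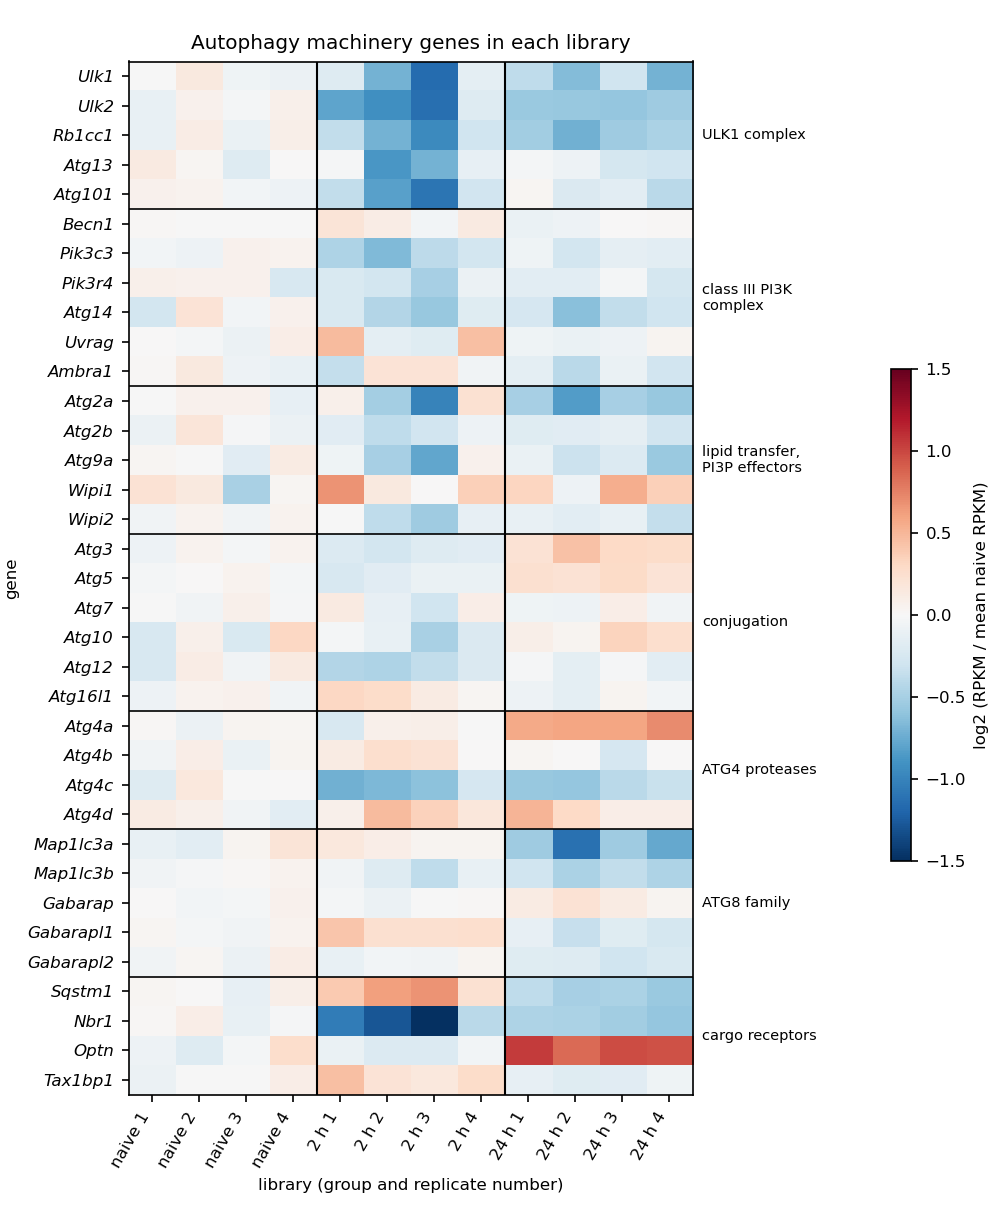
Level of each of the 35 genes (rows, grouped by role) in each of the 12 libraries (columns), as log2 of its RPKM over the mean of the 4 naive libraries; red is higher and blue lower. Most of the ULK1 complex and Nbr1 are blue at 2 h, most of them palest in replicate 4, and Optn and Atg4a are red in all 4 libraries at 24 h.

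**Figure D2:**
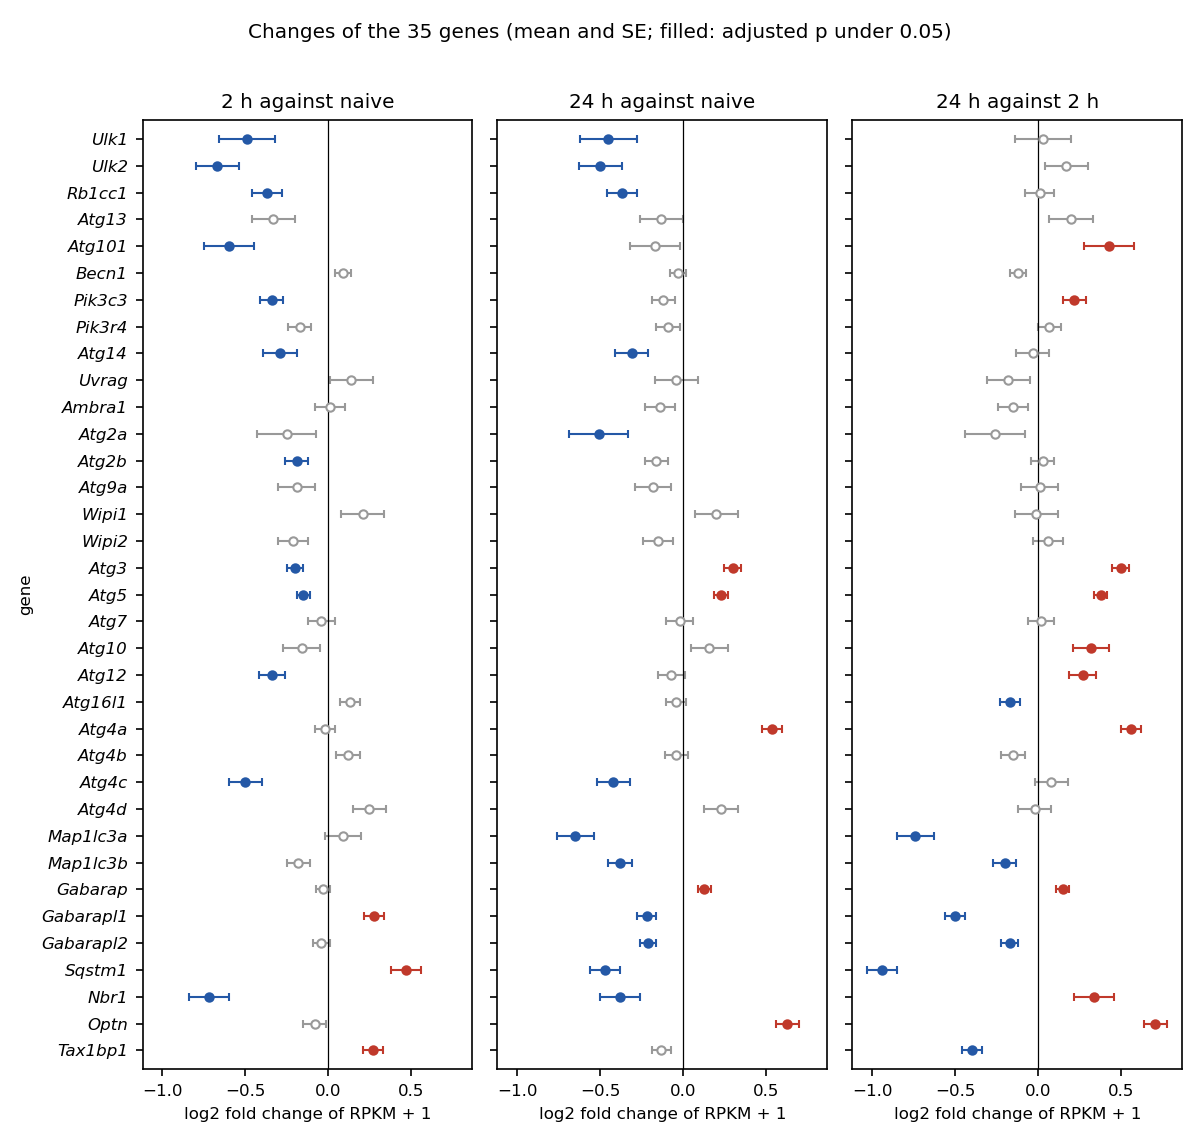
Log2 fold change (x axis, on the scale of RPKM + 1) of each gene in the 3 comparisons, with its standard error as bars; filled points passed an adjusted p of 0.05, red higher and blue lower. Filled points number 15, 17 and 17 of 35 from left to right.

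The ULK1 complex receives signals from nutrient-sensing kinases and starts autophagosome formation. Of its 5 genes 4 were lower at 2 h, beside 22% of all genes, 3 were lower at 24 h, beside 20.6%, and none was higher than in naive libraries. With median-ratio scaling Ulk1 was not called at 2 h (-0.44, adjusted p = 0.0605), which leaves 3. Ulk2, a kinase related to Ulk1, stood at 10.1, 11.4, 10.7 and 11.5 RPKM in naive libraries, at 6.32, 5.77, 5.0 and 9.55 at 2 h, and at 7.45, 7.34, 7.31 and 7.54 at 24 h. Both reperfusion groups lay wholly below naive. The log2 change of Ulk2 was -0.67 ± 0.13 (SE) at 2 h (adjusted p = 0.00267, limma) and -0.50 ± 0.13 at 24 h (adjusted p = 0.0093). With limma on the 2 compared groups alone, the adjusted p of Ulk2 was 0.0135 at 2 h and 5.22e-05 at 24 h. Rb1cc1, which encodes the scaffold FIP200, had 2.14, 2.48, 2.15 and 2.45 RPKM in naive libraries, 1.78, 1.41, 1.19 and 1.87 at 2 h, and 1.61, 1.40, 1.59 and 1.66 at 24 h. It fell by 0.37 on the log2 scale at both times (adjusted p = 0.00685 and 0.00543), without overlap with naive.

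Ulk1, the kinase that gives the complex its name, stood at 10.4, 11.5, 9.97 and 9.85 RPKM in naive libraries, at 9.09, 6.38, 4.67 and 9.46 at 2 h, and at 8.04, 6.66, 8.48 and 6.39 at 24 h. The groups did not overlap with naive, but 2 h replicates 1 and 4 lay just under it while replicate 3 was less than 5 RPKM. The log2 change was -0.49 ± 0.17 at 2 h (adjusted p = 0.0409) and -0.45 ± 0.17 at 24 h (adjusted p = 0.0453). The call at 2 h was lost without any 1 of the 4 naive libraries, 2 h replicates 2 or 3, or 24 h replicate 1, with changes of -0.51 to -0.31 and adjusted p of 0.0522 to 0.1. That at 24 h was lost without any 1 of the 4 naive libraries, 2 h replicate 2, or 24 h replicates 1, 2 or 4. Changes were then -0.49 to -0.40, with adjusted p of 0.0526 to 0.111. It was also lost with no filter (adjusted p = 0.0995) and with a replicate block (adjusted p = 0.0664). In a limma fit of the 2 compared groups alone, the adjusted p of Ulk1 was 0.0738 at 2 h and 0.00301 at 24 h.

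Atg101, which stabilises Atg13 in the complex, had 21.6, 21.5, 20.1 and 19.6 RPKM in naive libraries, 16, 11.8, 9.65 and 16.9 at 2 h, and 21.2, 17.8, 18.6 and 15.7 at 24 h. All 4 libraries at 2 h were below naive, and at 24 h the values reached back into the naive range. It fell by 0.60 ± 0.15 on the log2 scale at 2 h (adjusted p = 0.00794) and was 0.43 ± 0.15 higher at 24 h than at 2 h (adjusted p = 0.0282). This rise was lost without any 1 of 2 h replicates 2 or 3 or 24 h replicates 1 or 3, with changes of 0.29 to 0.42 and adjusted p of 0.0583 to 0.0814, and with median-ratio scaling (0.36, adjusted p = 0.056) or quantile normalisation (0.37, adjusted p = 0.0505). Atg13, the adaptor that links the kinase to FIP200, ranged over 3.83 to 4.79 RPKM in naive libraries, 2.39 to 4.30 at 2 h and 3.55 to 4.29 at 24 h, and passed no test in the main fit. It was called lower at 2 h with voom (-0.44, adjusted p = 0.0401) and with library weights (-0.45, adjusted p = 0.0111).

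The class III PI3K complex makes the PI3P that marks the forming membrane. Of its 6 genes 2 were lower at 2 h, beside 22% of all genes, 1 was lower at 24 h, beside 20.6%, and none was higher than in naive libraries. Pik3c3, the catalytic subunit VPS34, stood at 3.72, 3.63, 4.00 and 3.97 RPKM in naive libraries, at 2.77, 2.43, 2.92 and 3.17 at 2 h, and at 3.67, 3.16, 3.5 and 3.43 at 24 h. Every library at 2 h was below every naive library, and the 24 h values overlapped both. Its log2 change was -0.34 ± 0.07 at 2 h (adjusted p = 0.00222) and 0.22 ± 0.07 at 24 h against 2 h (adjusted p = 0.0153). The latter was lost with quantile normalisation (0.15, adjusted p = 0.0589). Atg14, the subunit that directs the complex to autophagy, had 4.78, 6.65, 5.62 and 6.02 RPKM in naive libraries, 4.91, 4.26, 3.88 and 5.08 at 2 h, and 4.83, 3.72, 4.47 and 4.70 at 24 h. Naive replicate 1 overlapped both other groups. Its log2 changes were -0.29 ± 0.10 at 2 h (adjusted p = 0.0432) and -0.31 ± 0.10 at 24 h (adjusted p = 0.0242).

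The Atg14 call at 2 h was lost without any 1 of naive replicates 2, 3 or 4, 2 h replicates 2 or 3, or 24 h replicates 1, 3 or 4, with changes of -0.30 to -0.23 and adjusted p of 0.0515 to 0.12, and with median-ratio scaling (-0.25, adjusted p = 0.0778) or quantile normalisation (-0.26, adjusted p = 0.0668). At 24 h it was lost without naive replicate 2 or 4 or 24 h replicate 2, with changes of -0.29 to -0.25 and adjusted p of 0.0586 to 0.0743. The other 4 genes of the group passed no test in the main fit. Becn1, the scaffold Beclin 1, ranged over 5.69 to 5.82 RPKM in naive libraries, 5.56 to 6.57 at 2 h and 5.34 to 5.80 at 24 h. Becn1 was called lower at 24 h than at 2 h with median-ratio scaling (-0.18, adjusted p = 0.013) and quantile normalisation (-0.19, adjusted p = 0.01). Its exons overlap those of Cntd1 on the other strand over 43.9% of their bases, and whether the counting used the strand is not given in the sources used here. Pik3r4, the regulatory subunit VPS15, had 1.30 to 1.95 RPKM over all 12 libraries. It was called lower at 2 h with voom (-0.28, adjusted p = 0.0309) and with library weights (-0.20, adjusted p = 0.0349). Ambra1, a regulator of Beclin 1, had 1.26 to 1.92 RPKM. Without 2 h replicate 1 it was called lower at 24 h than at 2 h (-0.22, adjusted p = 0.0379). Uvrag, which replaces Atg14 in a complex acting on endosomes, ran from 14.3 to 22.6 RPKM at 2 h, with replicates 1 and 4 above and replicates 2 and 3 below every naive library.

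Among the genes for lipid transfer and PI3P effectors, Atg2a fell at 24 h, Atg2b fell at 2 h and none rose. Atg2a, a bridge that carries lipid into the growing membrane, stood at 7.15, 7.49, 7.48 and 6.58 RPKM in naive libraries, at 7.58, 5.03, 3.58 and 8.42 at 2 h, and at 5.06, 4.02, 5.10 and 4.83 at 24 h. The 4 libraries at 24 h were below naive, and those at 2 h spread to both sides of it. The change at 24 h was -0.51 ± 0.18 (adjusted p = 0.0397). This call was lost without any 1 of the 4 naive or the 4 libraries at 24 h. Changes were then -0.55 to -0.45, with adjusted p of 0.054 to 0.104. It was also lost with no filter (adjusted p = 0.0898) and with a replicate block (adjusted p = 0.051). In a limma fit of the 24 h and naive libraries alone it passed, with an adjusted p of 0.000478. Atg2b, a bridge of the same kind, had 5.55, 6.67, 5.81 and 5.55 RPKM in naive libraries, 5.25, 4.53, 4.82 and 5.58 at 2 h, and 5.21, 5.23, 5.39 and 4.85 at 24 h. The groups at 2 h and naive overlapped, and the change of -0.19 ± 0.07 (adjusted p = 0.0486) was lost without any library but 2 h replicate 4, with changes of -0.21 to -0.14 and adjusted p of 0.0511 to 0.137, and under both other scalings (-0.15, adjusted p = 0.112; -0.17, adjusted p = 0.0809). Atg9a, the scramblase that spreads lipid between the leaflets, had 1.05 to 1.96 RPKM over all libraries. The PI3P-binding proteins Wipi1 and Wipi2 had 1.19 to 2.67 and 3.19 to 4.81 RPKM, and these 3 genes passed no test in the main fit. Wipi2 was called lower at 2 h with library weights (-0.26, adjusted p = 0.0166) and without 2 h replicate 1 (-0.28, adjusted p = 0.0228).

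Of the 6 conjugation genes, Atg3, Atg5 and Atg12 were lower at 2 h, beside 22% of all genes. Atg3 and Atg5 were higher than naive at 24 h, beside 25.3%, and 4 were higher at 24 h than at 2 h, beside 30.9%. With median-ratio scaling or quantile normalisation those 4 were 2, Atg3 and Atg5. Atg3 (ENSMUSG00000022663, mm10 chr16:45158785-45188538, plus strand) encodes the E2-like enzyme that joins ATG8 proteins to lipid. Atg3 stood at 22.4, 24.4, 23.2 and 24.4 RPKM in naive libraries, at 20.4, 19.5, 20.7 and 20.9 at 2 h, and at 27.5, 31.9, 29.1 and 28.6 at 24 h. The 3 groups did not overlap. The log2 change was -0.20 ± 0.05 at 2 h (adjusted p = 0.0108), 0.30 ± 0.05 at 24 h (adjusted p = 0.000629) and 0.50 ± 0.05 between the times (adjusted p = 9.21e-06), a ratio of means of 1.44.

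Atg5 (ENSMUSG00000038160, mm10 chr10:44268358-44364291, plus strand) is joined to Atg12, and the pair acts with Atg16l1 as the E3-like enzyme of the same step. Atg5 stood at 31.4, 32.1, 33.1 and 31.4 RPKM in naive libraries, at 27.0, 28.4, 29.8 and 29.8 at 2 h, and at 37.7, 37.2, 39.0 and 36.8 at 24 h. Again no 2 groups overlapped. The log2 change was -0.15 ± 0.04 at 2 h (adjusted p = 0.0187), 0.23 ± 0.04 at 24 h (adjusted p = 0.00128) and 0.38 ± 0.04 between the times (adjusted p = 2.2e-05). The fall at 2 h was lost without naive replicate 3 (-0.14, adjusted p = 0.0582) and with median-ratio scaling (-0.10, adjusted p = 0.0737).

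Across the 12 libraries Atg3 and Atg5 had a Pearson's r of 0.94, given as a description since the libraries share their groups. Both also hold the E-box CACGTG, the letters bound by TFEB and related factors, ahead of their start sites. The stretches shown are from RefSeq promoter windows (GRCm38.p6), which run from 250 bases before to 50 after a gene's start, trimmed to end before the start in either annotation. Capitals mark the E-box with, where present, the T before it or the A after it that makes the longer form TCACGTG of the motif. The stretch of Atg3 lies at chr16:45158579-45158784 and Atg5 at chr10:44268089-44268338, both on the plus strand.
Atg3: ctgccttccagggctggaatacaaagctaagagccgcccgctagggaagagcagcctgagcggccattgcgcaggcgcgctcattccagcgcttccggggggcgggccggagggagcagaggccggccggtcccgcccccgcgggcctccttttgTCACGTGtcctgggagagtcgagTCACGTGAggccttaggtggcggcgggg
Atg5: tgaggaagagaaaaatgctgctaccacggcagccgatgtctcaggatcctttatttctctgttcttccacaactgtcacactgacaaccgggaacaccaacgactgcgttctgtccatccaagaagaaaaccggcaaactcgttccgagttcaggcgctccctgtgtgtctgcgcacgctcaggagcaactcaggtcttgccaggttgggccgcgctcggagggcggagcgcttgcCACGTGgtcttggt

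Of the 35 genes 29 had a promoter window, and motifs were searched on both strands of its whole length. CACGTG was in the windows of 4 members (Atg3, Atg5, Atg7 and Atg14), 13.8% against 8.09% of 27025 genes. The longer TCACGTG, which contains it, was in 3 of these 4, all but Atg5, or 10.3% against 4.29%. The antioxidant response element TGACNNNGC, read by NRF2, was in 4 (Atg13, Map1lc3b, Tax1bp1 and Ulk2), 13.8% against 14.0%. The forkhead motif TGTTTAC and the amino acid response element TGATGNAA were in no member's window, against 4.05% and 4.51% of genes. The 4 members with CACGTG did not share a course, since Atg7 passed no test and Atg14 was lower at both times. A match is not a shown binding site.

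Atg12, the ubiquitin-like protein joined to Atg5, had 13.8, 17.6, 15.7 and 17.9 RPKM in naive libraries, 12.0, 11.8, 12.6 and 14.0 at 2 h, and 16.1, 14.7, 16.1 and 14.6 at 24 h. All libraries at 24 h were above those at 2 h, while 2 h replicate 4 passed naive replicate 1. Its log2 change was -0.34 ± 0.08 at 2 h (adjusted p = 0.00798) and 0.27 ± 0.08 between the times (adjusted p = 0.0169). The rise between the times was 0.20 with median-ratio scaling (adjusted p = 0.056) and with quantile normalisation (adjusted p = 0.0669), and passed with neither. Atg10, the E2-like enzyme of that reaction, stood at 3.96, 4.94, 3.99 and 5.80 RPKM in naive libraries, at 4.59, 4.32, 3.33 and 4.03 at 2 h, and at 4.97, 4.82, 5.87 and 5.58 at 24 h. The 2 reperfusion groups did not overlap and both overlapped naive. Atg10 was 0.32 ± 0.11 higher at 24 h than at 2 h (adjusted p = 0.031), which was lost without any 1 of 2 h replicates 3 or 4 or 24 h replicates 3 or 4, with changes of 0.25 to 0.32 and adjusted p of 0.0541 to 0.0855. It was also lost with median-ratio scaling (0.26, adjusted p = 0.0764) and quantile normalisation (0.25, adjusted p = 0.0998).

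Atg16l1, which places the enzyme on the membrane, went the other way from Atg5 and Atg12 between the times. It stood at 1.94, 2.12, 2.14 and 1.97 RPKM in naive libraries, at 2.53, 2.47, 2.22 and 2.08 at 2 h, and at 1.93, 1.84, 2.10 and 1.99 at 24 h. The reperfusion groups overlapped only through 2 h replicate 4 and 24 h replicate 3. The change between the times was -0.17 ± 0.06 (adjusted p = 0.0396), and it was lost without any 1 of naive replicates 2 or 3, 2 h replicates 1 or 2, or 24 h replicates 1, 2 or 4, with changes of -0.17 to -0.14 and adjusted p of 0.0506 to 0.106. Atg7, the E1-like enzyme of both conjugation systems, had 4.55 to 6.13 RPKM over all libraries and passed no test.

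The ATG4 proteases trim ATG8 proteins before conjugation and free them from lipid again, and the 4 genes did not move alike: Atg4a rose late, Atg4c was lower at both times, and Atg4b and Atg4d passed no test in the main fit. Atg4a (ENSMUSG00000079418, chromosome X) stood at 5.90, 5.45, 5.98 and 5.91 RPKM in naive libraries, at 4.90, 6.12, 6.15 and 5.80 at 2 h, and at 8.65, 8.78, 8.75 and 9.51 at 24 h. All 4 libraries at 24 h were above all others. The mean rose from 5.81 ± 0.242 (SD, n = 4) to 8.92 ± 0.394 RPKM, 1.54-fold, and the log2 change was 0.54 ± 0.06 (SE; adjusted p = 3.88e-05). A near-identical copy, Atg4a-ps, matches it at 99.3% over 2115 bases and was listed at 0 in all libraries.

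Atg4c had 8.45, 10.8, 9.64 and 9.69 RPKM in naive libraries, 5.85, 6.03, 6.31 and 8.12 at 2 h, and 6.53, 6.43, 7.27 and 7.66 at 24 h. Both reperfusion groups were below naive, 2 h replicate 4 the nearest to it. Its log2 change was -0.50 ± 0.10 at 2 h (adjusted p = 0.00242) and -0.42 ± 0.10 at 24 h (adjusted p = 0.00438). Atg4b ranged over 2.52 to 3.59 RPKM in the 12 libraries. It was called lower at 24 h than at 2 h with median-ratio scaling (-0.21, adjusted p = 0.0222) and quantile normalisation (-0.22, adjusted p = 0.0178). Atg4d had 9.72 to 11.8 RPKM in naive libraries, 11.4 to 15.1 at 2 h and 11.6 to 15.4 at 24 h, with 19.3% of its exon bases shared with Kri1 on the other strand. With median-ratio scaling Atg4d was called higher at 2 h (0.30, adjusted p = 0.0379).

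The ATG8 family is the protein tag of the autophagosome membrane. At 2 h Gabarapl1 was called and the other 4 genes were not, and at 24 h all 5 differed from naive, 4 lower and Gabarap higher. Of all genes 45.9% differed at 24 h, 20.6% lower and 25.3% higher. Map1lc3a (ENSMUSG00000027602, chromosome 2), which encodes LC3A, stood at 11, 10.6, 12.2 and 13.6 RPKM in naive libraries, at 13.2, 12.7, 12.2 and 12.2 at 2 h, and at 8.17, 5.45, 8.22 and 6.98 at 24 h. Every library at 24 h lay below all others. The mean fell to 7.20 ± 1.30 RPKM from 11.8 ± 1.38 (SD, n = 4), a ratio of 0.609, and the log2 change was -0.65 ± 0.11 (SE; adjusted p = 0.000487).

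Map1lc3b, which encodes the commonly used marker LC3B, had 21.8, 22.3, 23.0 and 23.5 RPKM in naive libraries, 21.8, 19.8, 17.4 and 20.9 at 2 h, and 18.4, 16.3, 17.5 and 16.5 at 24 h. Values at 24 h were below naive in all 4 libraries, and those at 2 h reached into both ranges. The log2 change was -0.18 ± 0.07 at 2 h (adjusted p = 0.0578, but 0.044 with quantile normalisation and 0.047 with voom), -0.38 ± 0.07 at 24 h (adjusted p = 0.000663) and -0.20 ± 0.07 between the times (adjusted p = 0.0228). The last was lost without any 1 of 2 h replicates 1 or 4 or 24 h replicates 2 or 4, with changes of -0.19 to -0.16 and adjusted p of 0.0552 to 0.067.

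Gabarapl2, also called GATE-16, stood at 16.1, 17.1, 15.7 and 18 RPKM in naive libraries, at 15.5, 16.2, 16.1 and 17.2 at 2 h, and at 14.8, 14.6, 13.6 and 14.3 at 24 h. All libraries at 24 h were below the other groups. The change was -0.21 ± 0.05 at 24 h (adjusted p = 0.00769) and -0.17 ± 0.05 between the times (adjusted p = 0.0186), the latter lost without 24 h replicate 3, with a change of -0.15 and an adjusted p of 0.0564. Gabarapl2 has processed pseudogenes of up to 99.4% identity over 349 bases, and reads could have been split with them.

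Gabarap had 102, 98.7, 100 and 106 RPKM in naive libraries, 100, 96, 101 and 103 at 2 h, and 111, 118, 111 and 105 at 24 h. The 24 h group was above 2 h and overlapped naive through its replicate 4. The rise of 0.13 ± 0.04 from naive (adjusted p = 0.037) was lost without any 1 of naive replicates 1, 2 or 3 or 24 h replicates 1, 2 or 3, with changes of 0.10 to 0.13 and adjusted p of 0.0646 to 0.0991. It was also lost with median-ratio scaling (0.11, adjusted p = 0.0831) and with quantile normalisation (0.07, adjusted p = 0.21). Against 2 h Gabarap was 0.15 ± 0.04 higher (adjusted p = 0.0134), and 0.08 with median-ratio scaling (adjusted p = 0.167).

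Gabarapl1 (ENSMUSG00000030161, mm10 chr6:129533160-129542346, plus strand) is the member of the family that moved in opposite directions. Gabarapl1 stood at 45.2, 43.2, 42.5 and 45.6 RPKM in naive libraries, at 58.7, 52.2, 52.1 and 52.7 at 2 h, and at 40.5, 34.7, 39.0 and 36.9 at 24 h. No groups overlapped. Its log2 change was 0.28 ± 0.06 at 2 h (adjusted p = 0.00298), -0.22 ± 0.06 at 24 h (adjusted p = 0.00855) and -0.50 ± 0.06 between the times (adjusted p = 2.03e-05). Its exons share 28.3% of their bases with 1700101I11Rik on the other strand, a transcript at no more than 6.45 RPKM.

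**Figure D3:**
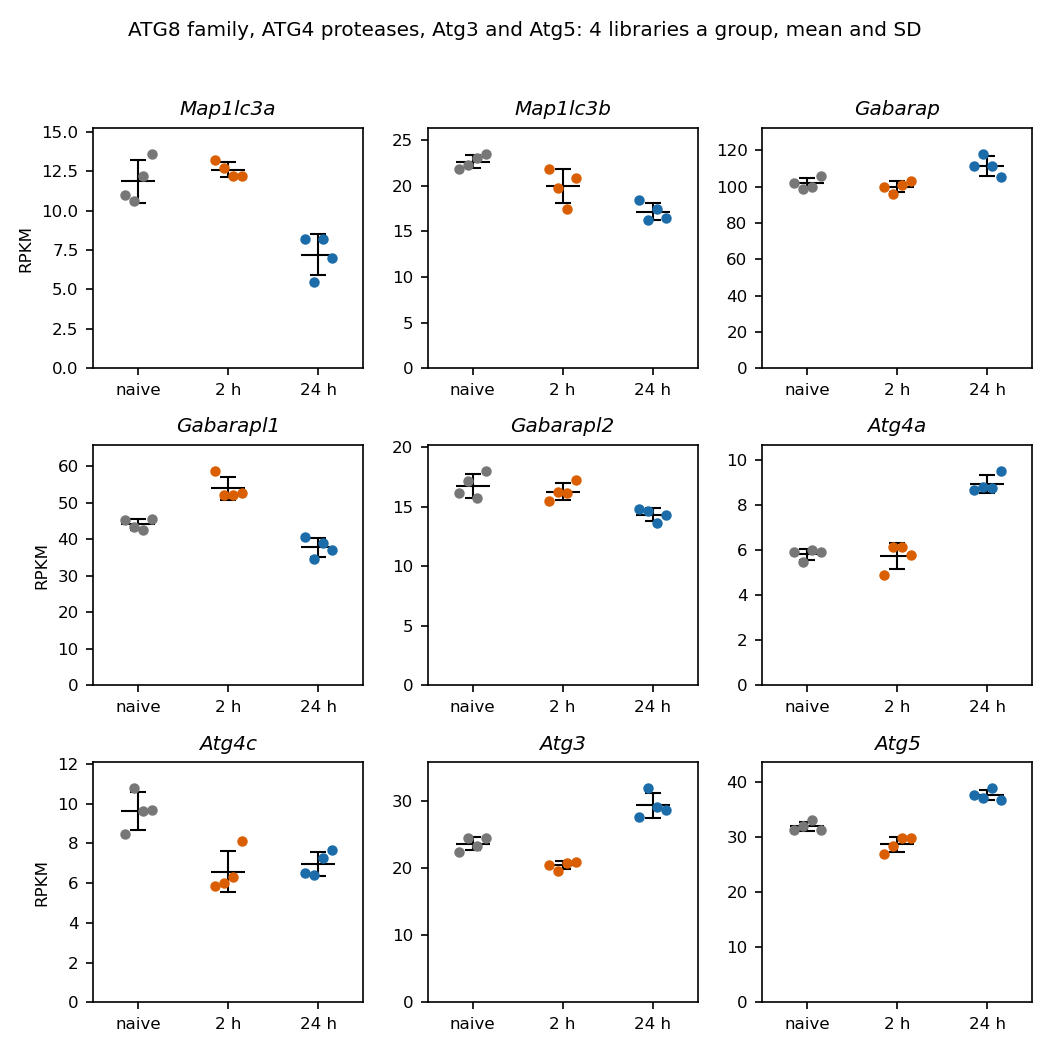
RPKM (y axis, from 0) of the 5 ATG8 genes, Atg4a, Atg4c, Atg3 and Atg5 in naive libraries and at 2 h and 24 h (x axis); points are libraries, lines with bars the mean and SD of 4. Map1lc3a falls at 24 h from a mean of 11.8 to 7.20 RPKM, Atg4a rises from 5.81 to 8.92, and Gabarapl1 is highest at 2 h while Atg3 and Atg5 are lowest there.

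The 4 cargo receptor genes, whose proteins bind both ubiquitin and ATG8 proteins, took different courses. Sqstm1 rose and then fell below naive, Tax1bp1 rose and returned, Nbr1 fell, and Optn rose at 24 h alone. Sqstm1 (ENSMUSG00000015837, mm10 chr11:50199366-50210827, minus strand) encodes p62, which also takes part in signalling through NF-kB and NRF2. Sqstm1 stood at 56.3, 55.5, 50.6 and 58.5 RPKM in naive libraries, at 72.5, 84.6, 88.2 and 64.8 at 2 h, and at 42.3, 39.2, 39.6 and 37.6 at 24 h. The 3 groups did not overlap, and 2 h replicates 2 and 3 were the highest of all. The mean was 55.3 ± 3.33, 77.5 ± 10.8 and 39.7 ± 1.94 RPKM (SD, n = 4 each), 1.40-fold of naive at 2 h and 0.718-fold at 24 h. On the log2 scale Sqstm1 changed by 0.47 ± 0.09 (SE) at 2 h (adjusted p = 0.00184), by -0.47 ± 0.09 at 24 h (adjusted p = 0.00113) and by -0.94 ± 0.09 between the times (adjusted p = 4.16e-06). Its exons share 17.3% of their bases with Mrnip on the other strand, which had no more than 2.33 RPKM.

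Sqstm1 and Gabarapl1 had a Pearson's r of 0.91 over the 12 libraries and of -0.93 and -0.94 with Atg3, again as a description. Their upstream stretches are shown to compare with those of Atg3 and Atg5, from the same table and trimmed the same way. Neither has a match to any of the motifs searched, so there are no capitals. Sqstm1 lies at chr11:50210828-50211070 on the minus strand and Gabarapl1 at chr6:129532942-129533159 on the plus strand.
Sqstm1: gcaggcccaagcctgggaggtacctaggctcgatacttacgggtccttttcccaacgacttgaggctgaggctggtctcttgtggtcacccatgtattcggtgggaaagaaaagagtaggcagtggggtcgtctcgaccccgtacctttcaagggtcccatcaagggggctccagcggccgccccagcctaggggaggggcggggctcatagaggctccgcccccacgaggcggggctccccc
Gabarapl1: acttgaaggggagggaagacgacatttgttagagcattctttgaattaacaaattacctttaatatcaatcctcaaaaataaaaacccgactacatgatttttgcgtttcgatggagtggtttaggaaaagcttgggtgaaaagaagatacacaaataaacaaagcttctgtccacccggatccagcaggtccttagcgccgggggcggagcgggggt

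Tax1bp1, a receptor that also restrains NF-kB signalling, had 23.0, 24.4, 24.3 and 26.2 RPKM in naive libraries, 33.5, 28.1, 27.3 and 29.7 at 2 h, and 22.4, 21.6, 21.7 and 23.4 at 24 h. The 2 h group was above both others, which overlapped. The change was 0.27 ± 0.06 at 2 h (adjusted p = 0.00784), -0.13 ± 0.06 at 24 h (adjusted p = 0.124, but 0.0218 with quantile normalisation) and -0.40 ± 0.06 between the times (adjusted p = 0.000312).

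Nbr1 (ENSMUSG00000017119, chromosome 11), a receptor that works together with p62, stood at 3.32, 3.53, 3.04 and 3.25 RPKM in naive libraries, at 1.59, 1.35, 1.17 and 2.48 at 2 h, and at 2.38, 2.36, 2.28 and 2.19 at 24 h. Both reperfusion groups were below naive, and 2 h replicate 4 lay apart from the other 3 at that time, above every 24 h library. The mean at 2 h was 1.65 ± 0.581 RPKM against 3.28 ± 0.200 (SD, n = 4), a ratio of 0.502. On the log2 scale Nbr1 changed by -0.72 ± 0.12 at 2 h (adjusted p = 0.000885), -0.38 ± 0.12 at 24 h (adjusted p = 0.0221) and 0.34 ± 0.12 between the times (adjusted p = 0.0298). The fall at 24 h was lost without naive replicate 2 or 24 h replicate 4, with changes of -0.36 to -0.35 and adjusted p of 0.0506 to 0.0578. The rise between the times was lost without any 1 of 2 h replicates 1, 2 or 3 or 24 h replicates 1, 2 or 3, with changes of 0.25 to 0.34 and adjusted p of 0.0553 to 0.0812, and under both other scalings (0.30, adjusted p = 0.0525; 0.28, adjusted p = 0.0667).

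Optn (ENSMUSG00000026672, chromosome 2) encodes optineurin, a receptor for bacteria and damaged mitochondria. Optn had 1.32, 1.22, 1.36 and 1.67 RPKM in naive libraries, 1.30, 1.21, 1.21 and 1.35 at 2 h, and 2.87, 2.5, 2.74 and 2.69 at 24 h. The 4 libraries at 24 h stood above all 8 others. The mean rose from 1.39 ± 0.194 to 2.70 ± 0.151 RPKM (SD, n = 4), 1.94-fold, and the log2 change was 0.63 ± 0.07 (SE; adjusted p = 1.82e-05). Against 2 h it was 0.71 ± 0.07 (adjusted p = 5.23e-06). Changes on the scale of RPKM + 1 are smaller than the ratio of means for genes as low as Optn and Nbr1.

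**Figure D4:**
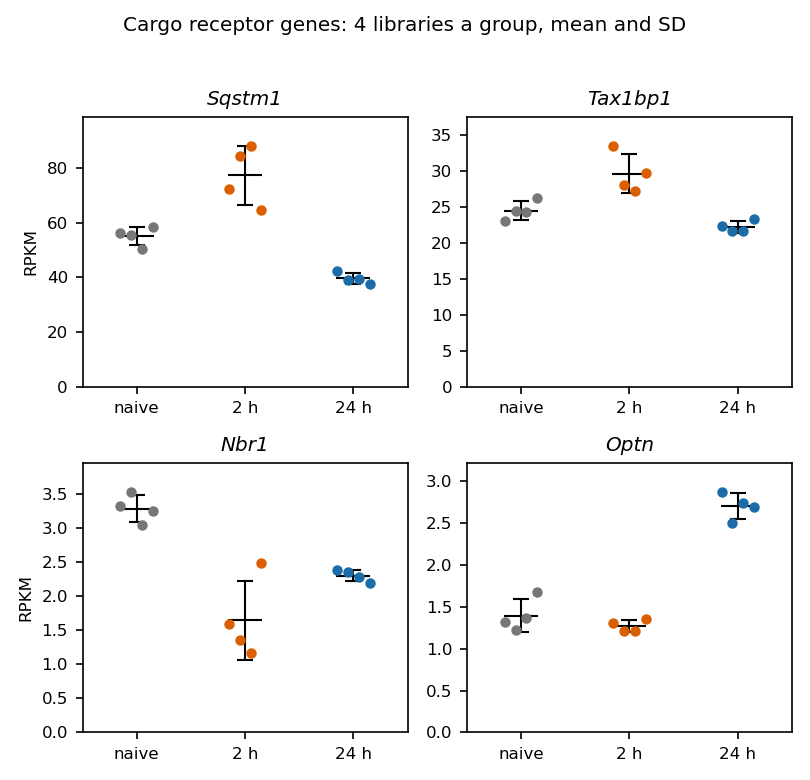
RPKM (y axis, from 0) of the 4 cargo receptor genes in naive libraries and at 2 h and 24 h (x axis); points are libraries, lines with bars the mean and SD of 4. Sqstm1 goes from a mean of 55.3 to 77.5 and 39.7 RPKM, and Optn stands at 2.5 to 2.87 RPKM at 24 h, above its 8 other libraries.

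Sorted by their calls, 9 members changed at 2 h and turned back at 24 h against 2 h (25.7%; 21.8% of all genes), namely Sqstm1, Gabarapl1 and Tax1bp1 upwards and Atg101, Pik3c3, Atg3, Atg5, Atg12 and Nbr1 downwards. With median-ratio scaling these 9 were 5: Pik3c3, Atg3, Gabarapl1, Sqstm1 and Tax1bp1. Another 6 changed at 24 h only, against both other groups (17.1%; 21.9% of all genes), with Optn, Atg4a and Gabarap higher and Map1lc3a, Map1lc3b and Gabarapl2 lower. Gabarap left this set with median-ratio scaling and with quantile normalisation. The 6 that differed from naive in 1 direction at both times were all lower: Ulk1, Ulk2, Rb1cc1, Atg14, Atg4c and Nbr1 (17.1%; 7.89% of all genes were lower at both). Without naive replicate 2, without 24 h replicate 4, or with no filter, 3 of them were left, Ulk2, Rb1cc1 and Atg4c (8.57%). Nbr1 is counted both among the 9 that turned back and among the 6 lower at both times. In the main fit Atg2a, Atg2b, Atg10 and Atg16l1 each passed a single comparison, and 11 passed none (31.4%; 29.6% of all genes). Sqstm1, Gabarapl1, Atg3 and Atg5 passed in opposite directions at 2 h and 24 h (11.4%; 6.2% of all genes), Atg5 neither with median-ratio scaling nor without naive replicate 3.

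The members' values were more spread at 2 h than in the other groups, as were those of all genes. The median coefficient of variation was 12.4% at 2 h against 6.02% in naive libraries and 6.42% at 24 h for members, and 12.3%, 8.16% and 8.86% for all genes tested. Within the 2 h group, replicate 3 was the lowest for 19 of the 35 members (54.3%; 25.2% of all genes) and replicate 4 the highest for 17 (48.6%; 31.5% of all genes). Atg2a (36.5%), Nbr1 (35.3%), Ulk1 (30.8%) and Ulk2 (30.1%) were the members with the largest coefficients at 2 h, while Atg3 (3.04%) and Gabarap (2.86%) were among the most even. Over the 595 pairs of members the median r across the 12 libraries was 0.13, from -0.94 (Atg3 and Gabarapl1) to 0.96 (Ulk2 and Nbr1).

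Levels of different genes can be set against each other only per length, and the lengths behind the deposited RPKM were 0.323 to 6.13 times the annotated exon length of the members. Per kilobase of annotated exon, Gabarap (193 ± 6.22 RPKM in naive libraries, SD, n = 4) and Sqstm1 (141 ± 8.48) were the highest members. Sqstm1 reached 198 ± 27.6 at 2 h, beside 189 ± 5.41 for Gabarap, which did not differ beyond their spread, and 101 ± 4.95 at 24 h, below Gabarap at 210 ± 10.3. Gabarapl1 came next with 38.7 ± 1.32, then Map1lc3b with 32.7 ± 1.08 and Atg5 with 32.0 ± 0.774, and the last pair did not differ beyond their spread. Optn (3.42 ± 0.476) and Wipi1 (2.59 ± 0.519) were the lowest.

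Around the core machinery, 5 lists of related genes held 111 symbols, of which 110 were in the table and 103 were tested. Of 16 other genes of autophagosome formation, 4 were higher and 3 lower at 2 h (43.8% called; 36.7% of all genes), and 4 higher and 5 lower at 24 h (56.2%; 45.9% of all genes). Tbk1, the kinase that phosphorylates optineurin and p62, went from 26.9 ± 0.525 RPKM to 40.5 ± 2.93 at 2 h (SD, n = 4; log2 0.57, adjusted p = 3.63e-05) and was at 31.2 ± 1.73 at 24 h. Zfyve1, whose protein marks the membrane where autophagosomes form, fell by 0.57 at 2 h (adjusted p = 0.0022). Tecpr1, linked to fusion of autophagosomes with lysosomes, fell by 0.55 at 24 h (adjusted p = 7.08e-05), and Vcp, an unfolding enzyme, rose by 0.49 (adjusted p = 3.61e-05).

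Among 25 upstream kinase and nutrient-sensing genes, 5 were higher and 3 lower at 2 h, and 4 higher and 2 lower at 24 h, or 32.0% and 24.0% called against 36.7% and 45.9% of all genes. Lamtor1, an anchor of mTORC1 on the lysosome, rose from 40.9 ± 1.30 to 69.6 ± 3.54 RPKM at 24 h (SD, n = 4; log2 0.75, adjusted p = 2.37e-07). Prkaa1, a catalytic subunit of AMPK, which phosphorylates Ulk1, fell by 0.41 at 2 h (adjusted p = 0.00424). Deptor, an mTOR inhibitor, fell by 0.60 at 24 h (adjusted p = 0.000129). Ddit4, a stress-induced inhibitor of mTORC1, was 0.490 ± 0.494 RPKM in naive libraries, 1.60 ± 0.237 at 2 h (log2 0.86, adjusted p = 0.00451) and 0.989 ± 0.245 at 24 h. Its naive mean was near the level of 3 reads in a gene of 1 kb, 0.341 to 0.491 RPKM in those libraries. Only its 2 h mean exceeded the filter of 1 RPKM, so it may have been tested only because it was high there.

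Of 17 transcription factors tied to autophagy genes, 4 were higher and 8 lower at 2 h (70.6%; 36.7% of all genes), and 2 were higher and 8 lower at 24 h (58.8%; 45.9% of all genes). Mitf, a relative of TFEB, had 5.17 ± 0.388 RPKM in naive libraries, 7.96 ± 0.956 at 2 h and 4.56 ± 0.545 at 24 h (SD, n = 4), with a log2 change of 0.53 at 2 h (adjusted p = 0.000963) and -0.69 between the times (adjusted p = 5.68e-05). Atf4, which answers amino acid stress, rose by 0.45 at 2 h (adjusted p = 0.000258) and differed from naive by 0.01 at 24 h (adjusted p = 0.88). Hif1a, the oxygen-regulated factor, rose by 0.55 at 2 h (adjusted p = 0.00336) and by 0.85 at 24 h (adjusted p = 9.28e-05). Zkscan3, a repressor of autophagy genes, fell by 0.64 at 2 h (adjusted p = 0.000155) and by 0.58 at 24 h (adjusted p = 0.000124). The factors Trp53 and E2f1, known for control of the cell cycle, fell by 0.45 (adjusted p = 0.000224) and 0.48 (adjusted p = 0.00145) at 2 h. The other 5 that were lower at 2 h were Nfe2l2 (NRF2; -0.60), Foxo4 (-0.59), Tfec (-0.50), Foxo3 (-0.46) and Ddit3 (-0.39), with adjusted p of 0.00294 to 0.0299, named after their values were seen, to complete the count.

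Of 20 genes for fusion with the lysosome, 3 were higher and 2 lower at 2 h and 4 higher and 3 lower at 24 h, or 25% and 35% against 36.7% and 45.9% of all genes. Rilp, an effector of Rab7, fell from 2.93 ± 0.197 RPKM to 1.52 ± 0.193 at 2 h (SD, n = 4; log2 -0.64, adjusted p = 5.73e-05) and stood at 1.55 ± 0.121 at 24 h. Ykt6, a fusion SNARE, rose by 0.24 at 2 h (adjusted p = 0.00781) and by 0.34 at 24 h (adjusted p = 0.000492). Of 25 mitophagy and other selective receptors, 6 were higher and 7 lower at 2 h (52.0% called; 36.7% of all genes), and 4 higher and 4 lower at 24 h (32.0%; 45.9% of all genes). Pink1, the kinase that marks damaged mitochondria, fell by 0.69 at 24 h (adjusted p = 0.000796), and Ccpg1, a receptor for endoplasmic reticulum, fell by 0.68 (adjusted p = 0.000364). Tollip, a ubiquitin-binding adaptor, rose by 0.42 at 2 h (adjusted p = 0.000107).

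**Figure D5:**
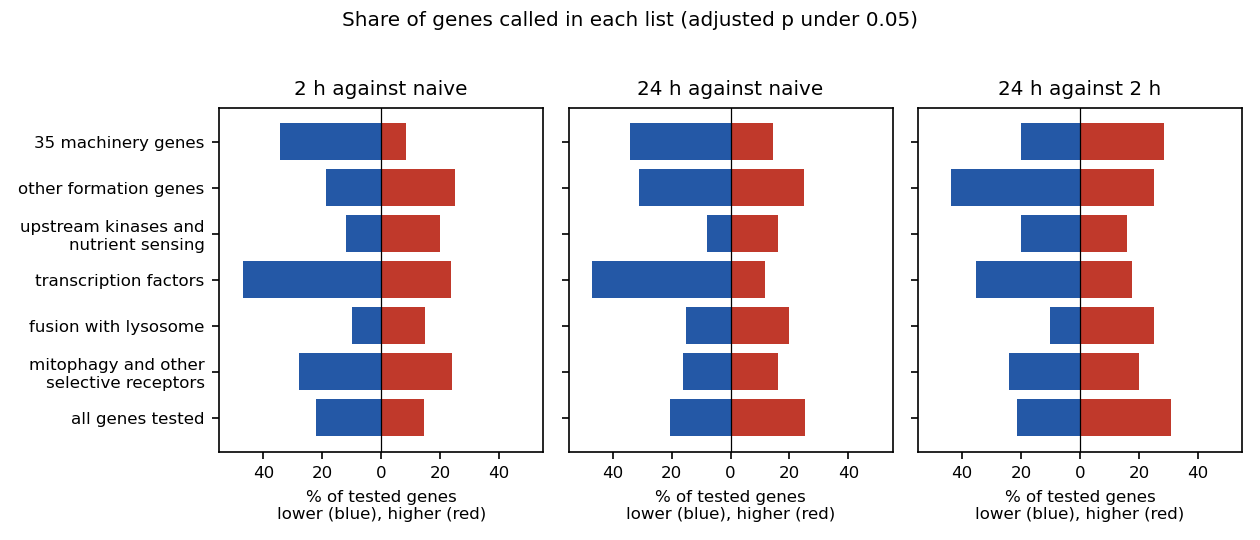
Share of tested genes called higher (red, right) and lower (blue, left) in each comparison (x axis, percent of the list; each bar a list) for the 35 genes, the 5 related lists and all genes tested. The transcription factor list has 70.6% of its genes called at 2 h, against 36.7% of all genes and 42.9% of the 35.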

How the data were processed

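RNA sequencing of alveolar macrophages gave 12 libraries, 4 naive, 4 at 2 h and 4 at 24 h after reperfusion. The authors deposited RPKM values per Ensembl gene. The tools named by the submitters' processing notes are TopHat2, HTSeq and bcl2fastq, and the build is mm10. Their versions, the annotation, gene lengths, filters and strand setting were not given in those notes as seen here. Symbols and exons came from GENCODE annotation of that assembly, and promoter windows from RefSeq (GRCm38.p6). Protein sequences were not analysed here.

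limma 3.58.1 (R 4.3.3) was fitted to log2(RPKM + 1) of all 12 libraries for the 11419 genes that reached 1 RPKM in 4 or more, with a variance trend and no covariate. The spread of a gene was estimated over all groups together, also for a comparison of 2 groups. Tests were two-sided, with Benjamini-Hochberg adjustment over all genes within each of 3 comparisons and a threshold of 0.05. Fold changes on this scale understate changes of low genes, and those written as ratios are ratios of mean RPKM. The steps were run on simulated reads with the same spread setting in every group, so the wider spread at 2 h was not covered. RPKM are not counts. Within 0.02 of a read, whole reads were recovered for 11415 of 11419 tested genes from the RPKM steps, and limma voom on them was an alternative. For a gene of 1 kb 3 reads gave 0.25 to 0.491 RPKM, a floor that covers counting error only.

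Members called in a comparison are given in every library, others by range, and related genes by smallest p, up to 3 for each list, direction and comparison, of which a choice made after seeing the values is printed. Copies were sought with BLAST 2.17.0 at 90% identity over 200 bases. Members and lists were chosen with earlier results of these data known. Alternatives were voom, leaving out each library, a replicate block, library weights, no trend, a fit of the 2 compared groups alone, quantile normalisation, median-ratio scaling, pseudocounts of 0.5 and 0.1, and a filter at 5 RPKM or none.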

Additional observations from a re-analysis of the deposited data

Results flagged for a closer look

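In 6 of 105 groups of 4 libraries (35 genes in 3 groups) the highest or lowest library lay far from the others by Dixon's criterion, which sets its gap to the nearest library against the group's range. Chance alone does so in about 1 in 20 groups. The libraries were naive replicate 4 for Pik3r4 (1.56 RPKM, low), naive replicate 2 for Atg4a (5.45, low), 2 h replicate 1 for Gabarapl1 (58.7, high), 24 h replicate 4 for Atg4a (9.51, high), 24 h replicate 3 for Atg7 (6.03, high) and 24 h replicate 3 for Atg4b (2.52, low). Without 2 h replicate 1 or 24 h replicate 4, the rises of Gabarapl1 at 2 h and of Atg4a at 24 h still passed.

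For 17 genes the change at 24 h differed from that at 2 h, both against the same naive libraries, by limma's test of 24 h against 2 h. These are the calls of that comparison given above, 48.6% of the members beside 52.5% of all genes. The change at 24 h exceeded that at 2 h on the log2 scale by 0.71 for Optn, 0.56 for Atg4a, 0.50 for Atg3, 0.43 for Atg101, 0.38 for Atg5, 0.34 for Nbr1, 0.32 for Atg10, 0.27 for Atg12, 0.22 for Pik3c3 and 0.15 for Gabarap. It was below that at 2 h for 7 genes, with differences of -0.94 for Sqstm1, -0.74 for Map1lc3a, -0.50 for Gabarapl1, -0.40 for Tax1bp1, -0.20 for Map1lc3b, -0.17 for Gabarapl2 and -0.17 for Atg16l1.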

How the results depend on the processing

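Of the 49 calls of members in the 3 comparisons, 31 passed under each of the 23 alternatives that tested them, 34 passed whichever library was left out, and none reversed direction. Alternatives also called members in comparisons where the main fit did not, among them Atg13, Becn1, Pik3r4, Atg4b and Atg4d. The count of members higher at 24 h than at 2 h was 10, and it was 6 with a filter at 5 RPKM, which left 22 members to test, 5 with median-ratio scaling and 5 with quantile normalisation. The cause was not tested for the scalings. Members with an antioxidant response element were 2 in place of 4 within the last 150 bases of the window. Leaving out each library gave 11 to 18 members called at 2 h (3 to 4 higher, 8 to 14 lower), 12 to 17 at 24 h (4 to 5 higher, 8 to 12 lower) and 13 to 17 between the times (7 to 10 higher, 5 to 9 lower). The other counts by comparison and direction, and of members with a motif, stayed within 1.5 times the main count. Counts of time courses moved further. The 9 members that turned back were 5 with median-ratio scaling. The 6 lower at both times were 3 with no filter, without naive replicate 2 or without 24 h replicate 4. Median-ratio scaling moved the share of higher among all genes called at 2 h from 40% to 50.2%.

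Libraries with the same replicate number did not deviate together: correlations over the 12 such pairs were -0.0426 to 0.0548, and 1 library correlated best with its own number. A fit with the replicate number as a block gave 12 members at 2 h (3 higher, 9 lower), 14 at 24 h (4 and 10) and 16 between the times (10 and 6). At 46 reads, the lowest count of a member, counting error alone limits how small a change can be seen.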
